A study of Mus musculus with 14 samples.

Results

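The splicing factors and heterogeneous nuclear ribonucleoproteins (hnRNPs) of SPC/c-Myc lung tumors were described on 72 probe sets of 53 genes, out of 12422 probe sets of 8251 genes on the array. A probe set is the group of short probes that measures 1 transcript. A probe set was taken where the platform annotation gave it a single gene symbol that begins with Hnrnp, Srsf, Sf3, Snrp, U2af or Prpf, or the symbol Tra2b; no probe set carried Ptbp1 as its single symbol, so this gene is not described. The members comprised 10 probe sets of U snRNP proteins, 10 of SF3 subunits, 3 of U2AF proteins, 10 of PRPF proteins, 17 of SR proteins (Srsf genes and Tra2b) and 22 of hnRNPs. One of the U snRNP symbols, Snrp1c-ps2, is a pseudogene.

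RNA was hybridized to Affymetrix Murine Genome U74v2 arrays, and the tumors came from mice hemizygous for a c-Myc transgene that the surfactant protein C (SPC) promoter directs to the alveolar epithelium. The groups were small tumors of about 1 mm (3 arrays, each a pool of 3 to 4 tumors of a single animal), middle tumors of 4 to 5 mm (4 arrays, single animals), large tumors of 10 mm or more (3 arrays, single animals) and control lung of non-transgenic mice (4 arrays). All mice had the CD2F1-(DBA/2xBalb/C) background and were 9 to 13 months old. The control was normal lung tissue, whereas each tumor was cut out of the surrounding tissue, and in such bulk samples fewer cells of a type and less RNA per cell cannot be told apart.

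Pre-mRNA splicing removes introns in a spliceosome built from small nuclear ribonucleoproteins (snRNPs), whose U RNAs carry a ring of Sm proteins. U2AF marks the end of the intron, the SF3A and SF3B subunits place the U2 snRNP on the branch site, and PRPF proteins carry the tri-snRNP and the activation steps. SR proteins bind exonic enhancers and help exons to be included, and many hnRNPs bind silencers and work against them. Splicing factors have been described among the genes that respond to Myc, and the levels of several SR proteins and hnRNPs are known to be altered in tumors.

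More of these transcripts were higher than lower in tumors relative to control lung. A probe set was tested where 3 or more arrays reached a signal of 70, which 62 members did. Of these, 25 probe sets of 23 genes were higher in all tumors at an adjusted p under 0.05 and 3 probe sets of 3 genes were lower. These are 40.3% and 4.84% of the members tested; the shares among the 8127 probe sets tested on the whole array were 22.7% and 20.8%. The median log2 fold change was 0.33 over the members and 0.03 over all probe sets. Called rises of at least 2-fold were found for 3 members (4.84%, against 6.74% of all probe sets), those of Snrpg, Hnrnpa1 and Sf3b3. Every tumor lay above every control lung for 9 members (14.5%, against 9.62% of all probe sets) and below every control lung for 2 members (3.23%, against 11.9%). Tests were made with limma on log2 signals, and p-values were adjusted over all probe sets (Benjamini-Hochberg).

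**Figure D1:**
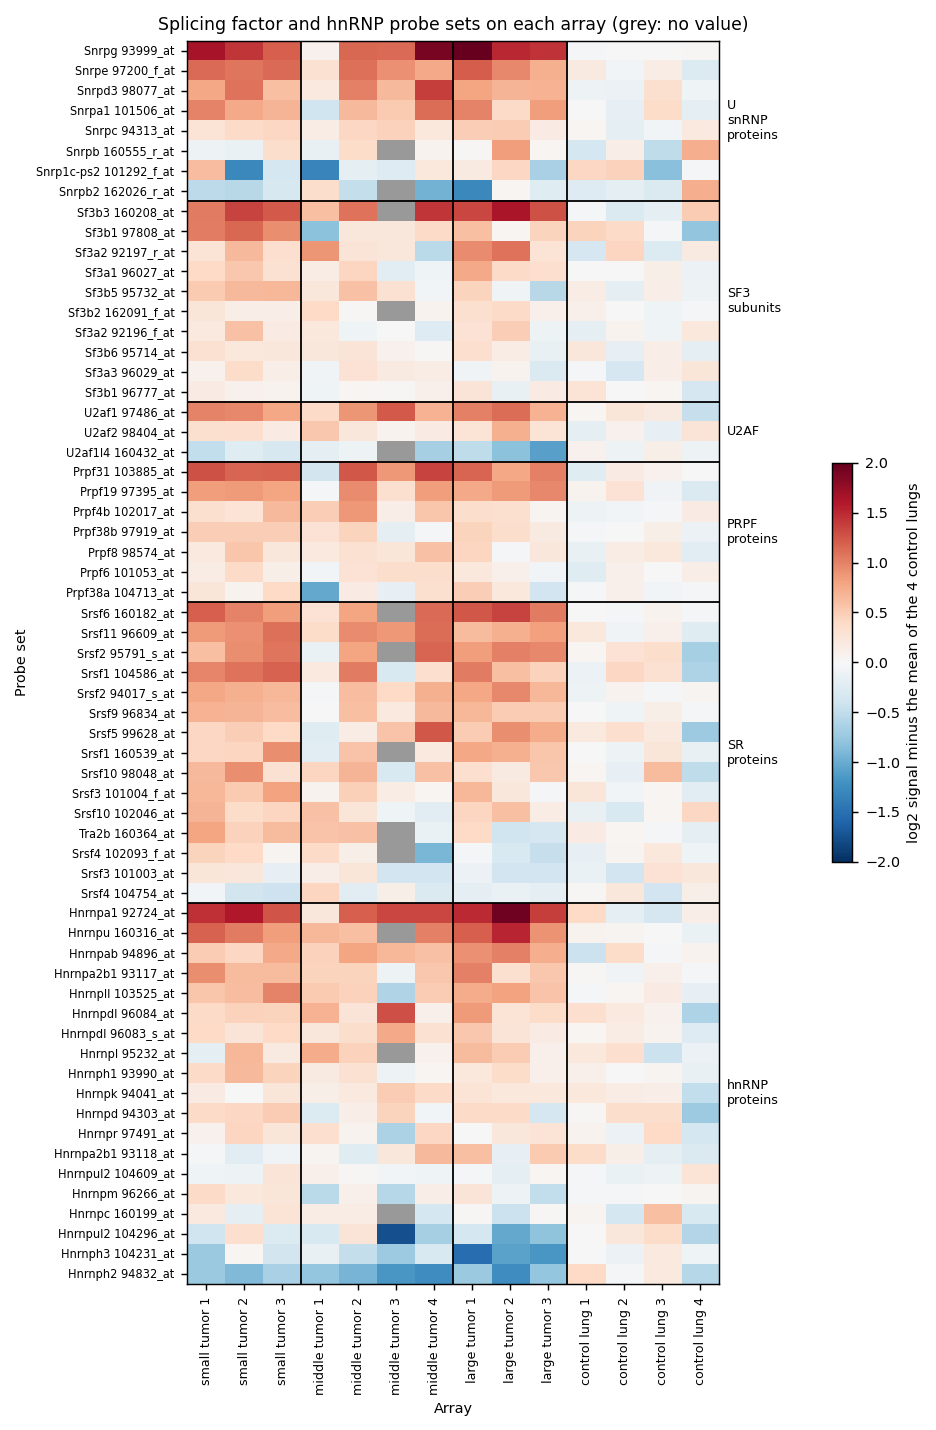
Log2 signal of the 62 tested probe sets (rows, by family and then by fold change) on the 14 arrays (columns), each row minus its mean over the 4 control lungs; red is higher and blue is lower, and grey cells have no value. The upper rows of each family are red on the tumor arrays, and middle tumor 1 is paler than the others in many rows.

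The member median on a single array, taken over the tested members as the log2 difference from the control mean, was 0.40, 0.46 and 0.41 in the small tumors, 0.18, 0.33, 0.18 and 0.21 in the middle tumors and 0.47, 0.37 and 0.20 in the large tumors, against values of -0.10 to 0.08 in the control lungs. All 10 tumors were thus above all 4 control lungs on this measure. The lowest medians were those of middle tumors 1 and 3. Middle tumor 1 had the lowest tumor signal for 21 of the 62 tested members and the highest for 4, among them Hnrnpl. Its c-Myc signal was 325, the lowest of the tumors (451 to 2165 in the other 9, against 24.1 to 35.6 in control lungs), while its summed signal of proliferation genes, 3485, was above the tumor minimum of 2590.1. Its summed signals of club cell genes, 17242, and lymphocyte genes, 2817, were the highest of the tumors. Control lungs had 14441 to 23832 and 2060 to 2717 for these lists. Its endothelial sum, 2647, was within the tumor range of 1773 to 3339. The part of the cell mixture in its member signals was not tested. The third middle tumor had no value for 3125 probe sets, 18 of them members, and its median rests on 49 members.

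Many cell type markers also differed between tumors and control lung. Of 16 proliferation genes tested, 14 were higher in tumors, and the summed signal of the 16 with a value on every array was 2590 to 8913 in tumors, against 1881 to 2085 in control lungs. All 9 smooth and cardiac muscle genes and 11 of 12 endothelial genes were lower in tumors, with summed endothelial signals of 1773 to 3339 in tumors and 21003 to 26811 in control lungs; 1 of these 12 genes was below 70 in every tumor. Of 3 alveolar type II genes tested, Sftpb was higher in tumors (8603 ± 1254 in 9 tumors with a value and 5651 ± 1336 in 4 control lungs, SD; log2 fold change 0.63, adjusted p = 0.00807) and Sftpc and Slc34a2 were not called. The part of the cell mixture and of proliferation in the splicing results was not tested. As a measure of RNA quality, the 3′ to 5′ signal ratio of Actb was 1.16 to 1.38 in tumors and 1.18 to 1.24 in control lungs.

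Among the U snRNP proteins, 5 of 8 probe sets tested were higher in tumors (62.5%, against 22.7% of all probe sets). None was lower (against 20.8% of all), and the median log2 fold change was 0.51. Snrpg, which encodes the SmG protein of the Sm ring, had the largest rise of all members. Its signals were 1532, 1311 and 1114 in small tumors, 520.4, 1084, 1066 and 1812 in middle tumors, 2030.1, 1379.8 and 1332 in large tumors, against 475, 487, 491 and 498 in control lungs. All tumors were above all control lungs, though middle tumor 1 exceeded the highest of them only slightly. The mean was 1318 ± 421 in tumors (SD, n = 10) and 488 ± 9.38 in control lungs (SD, n = 4). The fitted difference, which weights the 3 sizes alike on the log2 scale, was 2.61-fold (log2 fold change 1.39 ± 0.23 (SE), adjusted p = 0.000251).

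Snrpe, another Sm ring member (SmE), had the second largest change in this family. Its signals were 1730.0, 1663 and 1737 in small tumors, 974, 1689, 1493 and 1338 in middle tumors, 1829, 1542 and 1294 in large tumors, against 895, 758, 877 and 654 in control lungs. All tumors were above all control lungs, with the lowest value again in middle tumor 1 (log2 fold change 0.95 ± 0.14 (SE), adjusted p = 9.95e-05). Its probe set is of the type that can share probes with related genes.

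The remaining called members of the family were Snrpd3, also of the Sm ring (log2 fold change 0.78, adjusted p = 0.00389), Snrpa1, a U2 snRNP protein (0.67, adjusted p = 0.0278), and Snrpc, a U1 snRNP protein (0.35, adjusted p = 0.0271). Snrpb, the SmB protein, had the highest mean signal of the family and was not called: its signals spread over 2784 to 5515 in tumors, against 2187 to 5112 in control lungs (log2 fold change 0.14 ± 0.23 (SE), adjusted p = 0.656). Snrpb2, a U2 snRNP protein, and the pseudogene Snrp1c-ps2 had negative estimates that were not called (-0.44, adjusted p = 0.239, and -0.25, adjusted p = 0.617). A second Snrpb and a second Snrpb2 probe set were too dim to be tested.

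Among the SF3 subunits, all 10 probe sets tested had positive estimates, but 1 was called (10% higher, against 22.7% of all probe sets). This was Sf3b3, a scaffold subunit of SF3B, with signals of 486, 606 and 554 in small tumors, 359, 502 and 636 in the 3 middle tumors with a value, 601, 732 and 571 in large tumors, against 233, 193, 209 and 337 in control lungs. Every tumor with a value was above every control lung, and the mean was 561 ± 105 in tumors (SD, n = 9) and 243 ± 64.7 in control lungs (SD, n = 4). The fitted difference was 2.32-fold (log2 fold change 1.22 ± 0.18 (SE), adjusted p = 9.74e-05). When the missing value of the third middle tumor was kept as 0, this call was lost.

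The highest mean signals of the family were those of Sf3a2, a subunit of SF3A, whose 2 probe sets had log2 fold changes of 0.17 (adjusted p = 0.332) and 0.46 (adjusted p = 0.115). Signals of the first were 1374 to 2468 in tumors, against 1450.1 to 1899.8 in control lungs. Both are of a type that can share sequence with other genes, and they were not called. Sf3b1, the SF3B subunit that holds the branch site, was read by 2 probe sets with log2 fold changes over all tumors of 0.47 and 0.07, neither called. The first of these was called higher in small tumors and not in middle or large tumors (log2 fold change 1.04, adjusted p = 0.0179, with 0.00 in middle and 0.37 in large tumors); no difference between tumor sizes was called for it.

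Of the 3 U2AF genes, 1 was higher, 1 was lower and 1 was not called. U2af1, the small subunit that reads the end of the intron, had signals of 871, 849 and 742 in small tumors, 566, 803, 1022 and 703 in middle tumors, 876, 949 and 704 in large tumors, against 449, 514, 495 and 317 in control lungs. All tumors lay above all control lungs, middle tumor 1 lowest (1.84-fold, log2 fold change 0.88 ± 0.16 (SE), adjusted p = 0.00051). U2af1l4, a paralog of U2af1 that can take its place, was lower in tumors. Its signals were 295, 349.7 and 334 in small tumors, 366, 385 and 261 in the 3 middle tumors with a value, 291, 236 and 196 in large tumors, against 441, 387, 448 and 388 in control lungs. All tumors with a value were below all control lungs, the large tumors furthest (log2 fold change -0.49 ± 0.15 (SE), adjusted p = 0.014). In the comparison of each size with control lung, U2af1l4 was called in large tumors (-0.80, adjusted p = 0.00395) but not in small (-0.35, adjusted p = 0.161) or middle tumors (-0.32, adjusted p = 0.215). Its differences between large and small and between large and middle tumors were not called (adjusted p = 0.587 and 0.430). Its call over all tumors was lost when each array was scaled to 1 median and when values of 0 were kept.

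The large subunit U2af2, which binds the polypyrimidine tract, had the highest mean signal of the 3. Its signals were 2071, 2086 and 1852 in small tumors, 2387, 1925, 1735 and 1855 in middle tumors, 1996, 2706 and 1996 in large tumors, against 1463, 1746, 1469 and 1982 in control lungs. The groups overlapped, and the difference did not pass the threshold (log2 fold change 0.31 ± 0.12 (SE), adjusted p = 0.0541); it was called under 7 of 28 alternatives, among them those without control lung 4, without the third middle tumor, or without large tumor 1 or 3.

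**Figure D2:**
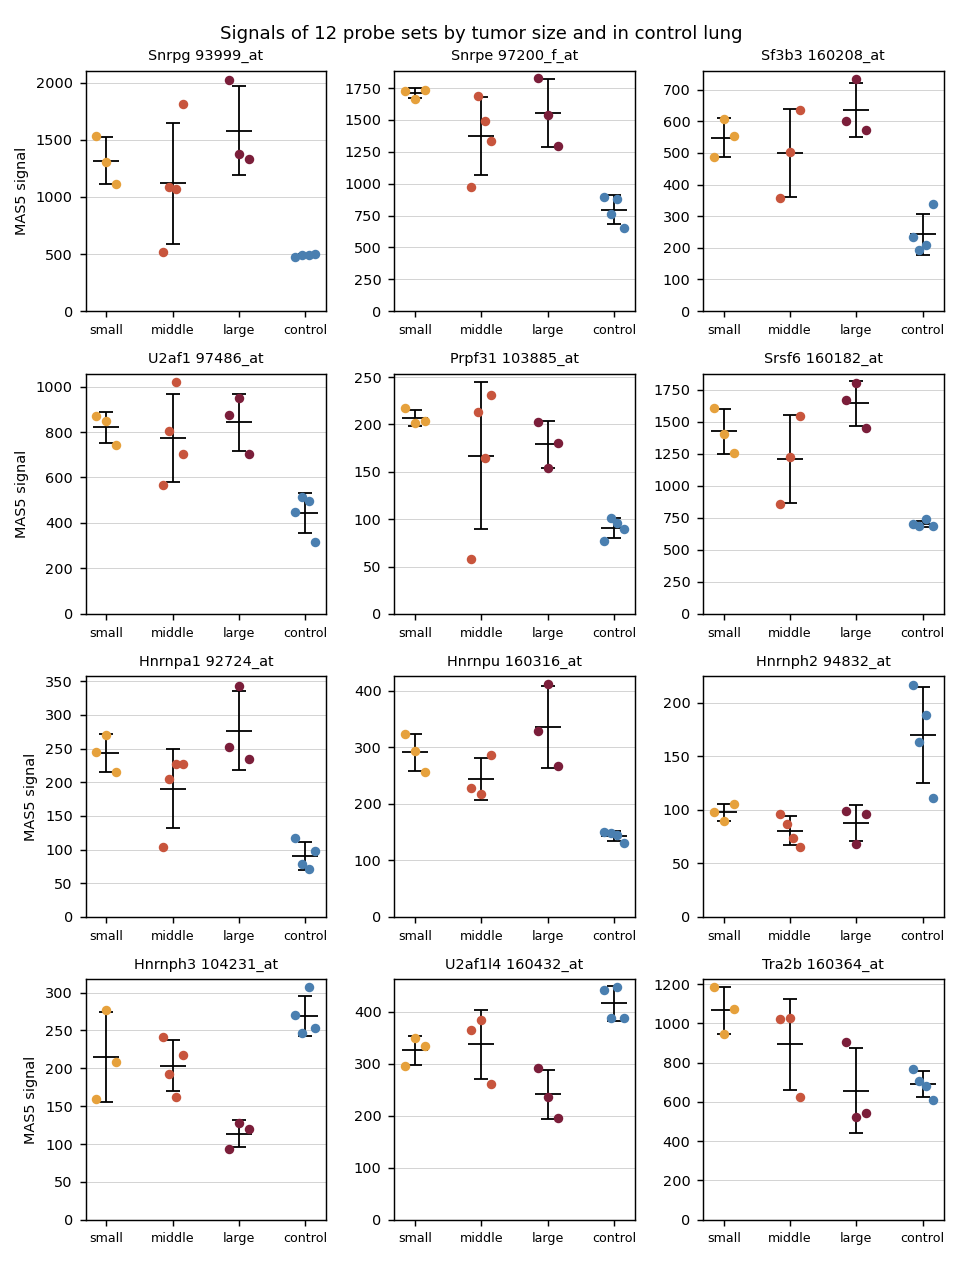
MAS5 signal (vertical axes, from 0) of 12 probe sets on the 3 small, 4 middle, 3 large and 4 control arrays; points are arrays, and the bar and whiskers are the group mean and SD. Snrpg, Snrpe, Sf3b3, U2af1, Srsf6 and Hnrnpu lie above control lung on every tumor array with a value, Hnrnph2 and U2af1l4 lie below it, and Tra2b overlaps.

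Among the PRPF proteins, 3 of 7 probe sets tested were higher (42.9%, against 22.7% of all probe sets). None was lower (against 20.8% of all), and the median log2 fold change was 0.31. Prpf31, a tri-snRNP protein, had signals of 217, 201 and 204 in small tumors, 58.2, 213, 165 and 231 in middle tumors, 203, 154 and 180.5 in large tumors, against 76.6, 101, 95.8 and 89.3 in control lungs. All tumors but middle tumor 1 were above all control lungs, and middle tumor 1 was below them and entered the test at 70 (log2 fold change 0.99 ± 0.25 (SE), adjusted p = 0.00495). Prpf19, the core of the complex that activates the spliceosome, was also higher (log2 fold change 0.73 ± 0.16 (SE), adjusted p = 0.00229); its signals were 664, 671 and 639.8 in small tumors, 362, 714, 461 and 661 in middle tumors, 631, 673 and 723 in large tumors, against 389, 454, 355 and 304 in control lungs. Here, too, 9 tumors exceeded every control lung and middle tumor 1 did not. The kinase gene Prpf4b had the smallest called change of the 3 (0.39, adjusted p = 0.03).

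The 2 PRPF probe sets with the highest mean signals were not called. Prpf8, at the catalytic centre of the spliceosome, had signals of 689 to 1062 in tumors, against 613 to 817 in control lungs (log2 fold change 0.29 ± 0.13 (SE), adjusted p = 0.0783), and Prpf6, a bridging protein of the tri-snRNP, had signals of 541 to 734 in tumors, against 475 to 619 in control lungs (log2 fold change 0.18 ± 0.11 (SE), adjusted p = 0.227). Prpf8 passed the threshold under 3 alternatives, including the one without large tumor 2. Both Prpf39 probe sets were under the signal filter, so Prpf39 was the 1 gene of the 53 with no tested probe set.

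**Figure D3:**
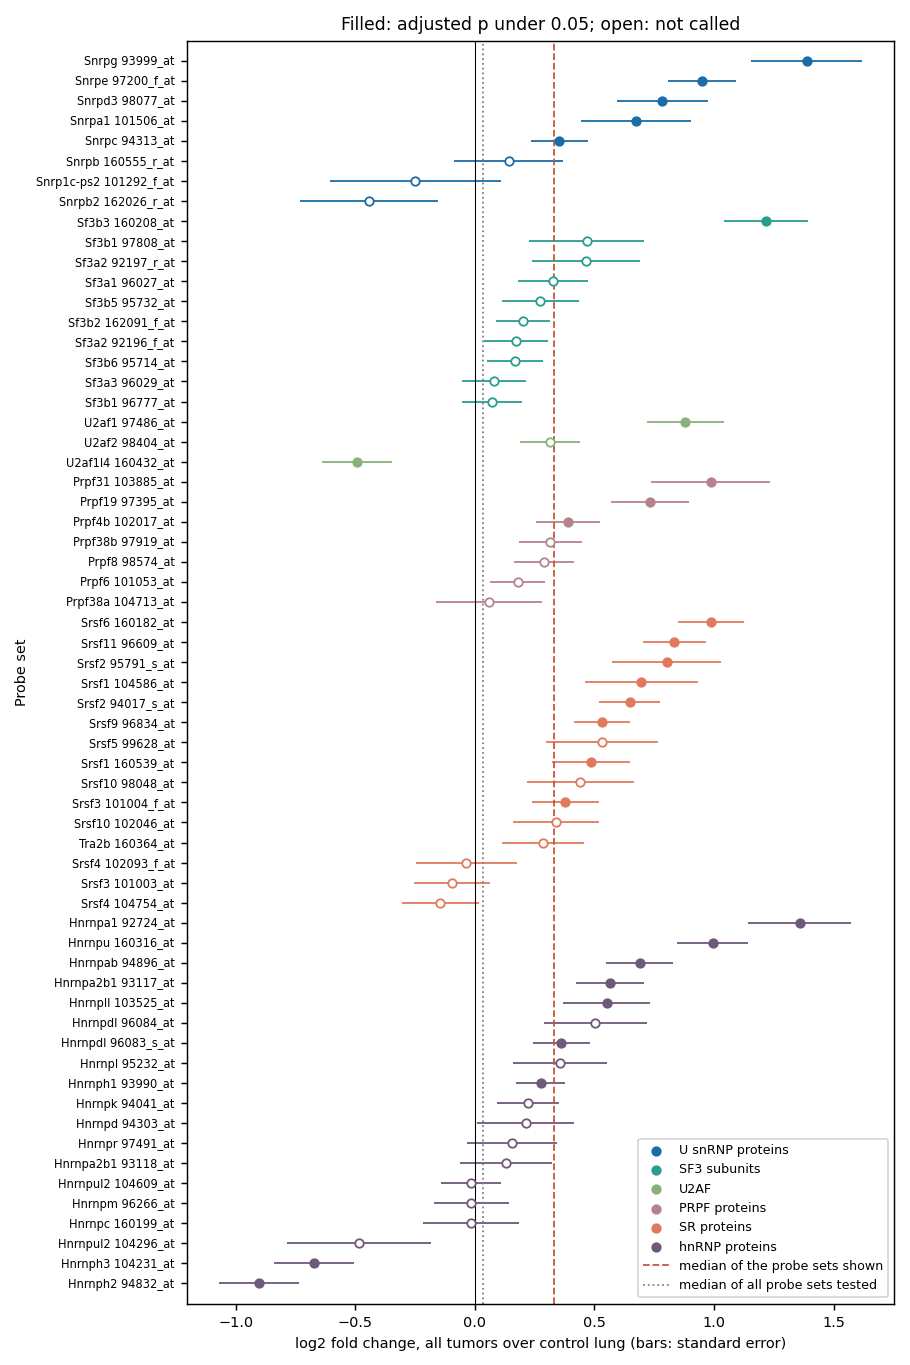
Log2 fold change of all tumors over control lung (horizontal axis) for each of the 62 tested probe sets (rows, by family), with its standard error as a bar; filled points have an adjusted p under 0.05. The dashed line is the members' median of 0.33 and the dotted line the median of 0.03 over all probe sets tested; 25 filled points are on the positive side and 3 on the negative side.

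The SR proteins had 8 of 15 probe sets higher (53.3%, against 22.7% of all probe sets), from 6 of the 10 genes. None was lower (against 20.8% of all), and the median log2 fold change was 0.49. Srsf6 had the largest rise, with signals of 1607, 1406 and 1259.6 in small tumors, 862, 1222 and 1542 in the 3 middle tumors with a value, 1672, 1803 and 1454 in large tumors, against 705, 689.9, 739 and 689 in control lungs. Control lungs were within a narrow range and every tumor with a value was above it (1.98-fold, log2 fold change 0.99 ± 0.14 (SE), adjusted p = 7.10e-05); this call, too, was lost when values of 0 were kept. Srsf11 followed, with signals of 1023, 1067 and 1209 in small tumors, 727, 1087, 1028 and 1228 in middle tumors, 877, 927 and 998 in large tumors, against 655, 538, 605 and 478 in control lungs. All tumors were above all control lungs (log2 fold change 0.83 ± 0.13 (SE), adjusted p = 0.000154).

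Srsf2, a regulator that promotes exon inclusion, was higher on both of its probe sets, which are of a type that can share probes with related transcripts. The first, which had the highest mean signal among the SR proteins, had signals of 4205, 4028 and 3909 in small tumors, 2428, 3804, 3259 and 4065 in middle tumors, 4242, 4832 and 3926 in large tumors, against 2305, 2596, 2436 and 2565 in control lungs (log2 fold change 0.65 ± 0.13 (SE), adjusted p = 0.000916). Only middle tumor 1 was within the range of the control lungs, and the other tumors were above it. The second Srsf2 probe set changed in the same direction (log2 fold change 0.80 ± 0.23 (SE), adjusted p = 0.0113), but its call was lost when values of 0 were kept and without control lung 4, which had the lowest signal (412). Srsf1, the prototype SR protein, was likewise higher on both of its tested probe sets (0.70, adjusted p = 0.0271, and 0.49, adjusted p = 0.0275), while the other 2 were too dim to be tested. Srsf9 completed the higher group with Srsf3 (0.53, adjusted p = 0.00213 for Srsf9).

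Srsf5, Srsf10 and Srsf4 were not called. The Srsf5 estimate was 0.53 (adjusted p = 0.0823), those of the 2 Srsf10 probe sets were 0.44 and 0.34, and those of the 2 Srsf4 probe sets were -0.04 and -0.15. Tra2b, an SR-like activator of exon inclusion, had signals of 1185, 944 and 1072 in small tumors, 1023, 1029.5 and 627 in the 3 middle tumors with a value, 907, 523 and 544 in large tumors, against 767, 709, 679.6 and 608 in control lungs. Small tumors were above all control lungs, while 2 of 3 large tumors were below them (log2 fold change 0.28 ± 0.17 (SE), adjusted p = 0.202). Against control lung, Tra2b was called in small tumors (0.63, adjusted p = 0.0387) and not in large tumors (-0.11, adjusted p = 0.72); the difference between large and small tumors was not called (log2 -0.74, adjusted p = 0.409).

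The hnRNPs had 7 of 19 probe sets higher (36.8%, against 22.7% of all probe sets), with a median log2 fold change of 0.22. Of the 19, 2 were lower, a smaller share than the 20.8% of all probe sets. Hnrnpa1, a silencer-binding protein that antagonizes SR proteins, had signals of 245, 270.1 and 214 in small tumors, 104, 205, 227 and 227 in middle tumors, 252, 343 and 234 in large tumors, against 117, 78.4, 71.0 and 97.6 in control lungs. Middle tumor 1 lay within the range of the control lungs, and the other 9 tumors were above it (2.56-fold, log2 fold change 1.36 ± 0.22 (SE), adjusted p = 0.00016). Hnrnpu, a large nuclear RNA- and scaffold-binding protein, had signals of 323, 294 and 256 in small tumors, 227, 217 and 287 in the 3 middle tumors with a value, 329, 412 and 267 in large tumors, against 149.8, 148, 144 and 131 in control lungs. The groups did not overlap (log2 fold change 0.99 ± 0.15 (SE), adjusted p = 0.000126).

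Of the other called rises, Hnrnpab was 0.69 (adjusted p = 0.0012), Hnrnpll, known for its work in lymphocytes, 0.55 (adjusted p = 0.0239) and Hnrnph1 0.27 (adjusted p = 0.0427) on the log2 scale. The other 10 members of the family were not called, and Hnrnpk, Hnrnpd, Hnrnpr, Hnrnpl, Hnrnpm, Hnrnpc and Hnrnpul2 had no called probe set. The estimates of the genes just named ranged from -0.49 for 1 of the Hnrnpul2 probe sets to 0.35 for Hnrnpl. The uncalled probe sets of Hnrnpa2b1 and Hnrnpdl are given below.

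Both lower hnRNPs belong to the H group, which binds runs of G in RNA. Hnrnph2 had signals of 98.5, 89.7 and 105 in small tumors, 96.5, 86.7, 73.7 and 65.2 in middle tumors, 98.5, 68.1 and 96.1 in large tumors, against 217, 163, 188 and 111 in control lungs. Every tumor was below every control lung, and the 2 tumor signals under 70 entered the test at 70 (1.87-fold lower, log2 fold change -0.90 ± 0.17 (SE), adjusted p = 0.000566). Hnrnph3 had signals of 159.7, 277 and 208 in small tumors, 241, 193, 162 and 218 in middle tumors, 93.7, 128 and 120.3 in large tumors, against 269.9, 247, 307 and 253 in control lungs. Small tumor 2 was within the range of the control lungs, and the other 9 tumors were below it (log2 fold change -0.67 ± 0.17 (SE), adjusted p = 0.00475). The Hnrnph3 call was lost under 1 of 28 alternatives, the unpaired test with Benjamini-Hochberg adjustment. Hnrnph3 was called in large tumors (-1.25, adjusted p = 0.000454) but not in small (-0.36, adjusted p = 0.229) or middle tumors (-0.41, adjusted p = 0.137). The differences of large from small and from middle tumors were not called for it (adjusted p = 0.245 and 0.241). The third gene of the group, Hnrnph1, was higher instead, while the levels of the 3 genes cannot be set against each other, since each probe set has its own probe affinity.

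For 3 genes the call differed between their probe sets. Hnrnpa2b1, a relative of Hnrnpa1, was higher on its bright probe set, with signals of 1499.7 to 3253 in tumors, against 1532 to 1723 in control lungs (log2 fold change 0.56 ± 0.14 (SE), adjusted p = 0.00499), and not called on the dimmer one, with signals of 168 to 315 in tumors, against 163 to 257 in control lungs (0.13, adjusted p = 0.63). For Hnrnpdl, the bright probe set had 1304 to 1968 in tumors, against 972 to 1288 in control lungs (log2 fold change 0.36 ± 0.12 (SE), adjusted p = 0.0238) and the dimmer one had 298 to 675 in tumors, against 181 to 350.2 in control lungs (0.50, adjusted p = 0.0739), so the 2 estimates had the same sign. The call of the bright Hnrnpdl probe set was lost without control lung 1 or without control lung 4. For Srsf3, which regulates splicing and export, the brighter probe set passed (log2 fold change 0.38 ± 0.14 (SE), adjusted p = 0.0392) and the dimmer one did not (-0.10, adjusted p = 0.667). The called probe sets of Hnrnpdl and Srsf3, unlike their dimmer ones, are of types that can share probes with related transcripts. The Srsf3 call was the least stable of those named, and was lost under 11 of 28 alternatives, including without control lung 2, 3 or 4, small tumor 1 or 3, middle tumor 2, or large tumor 1.

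**Figure D4:**
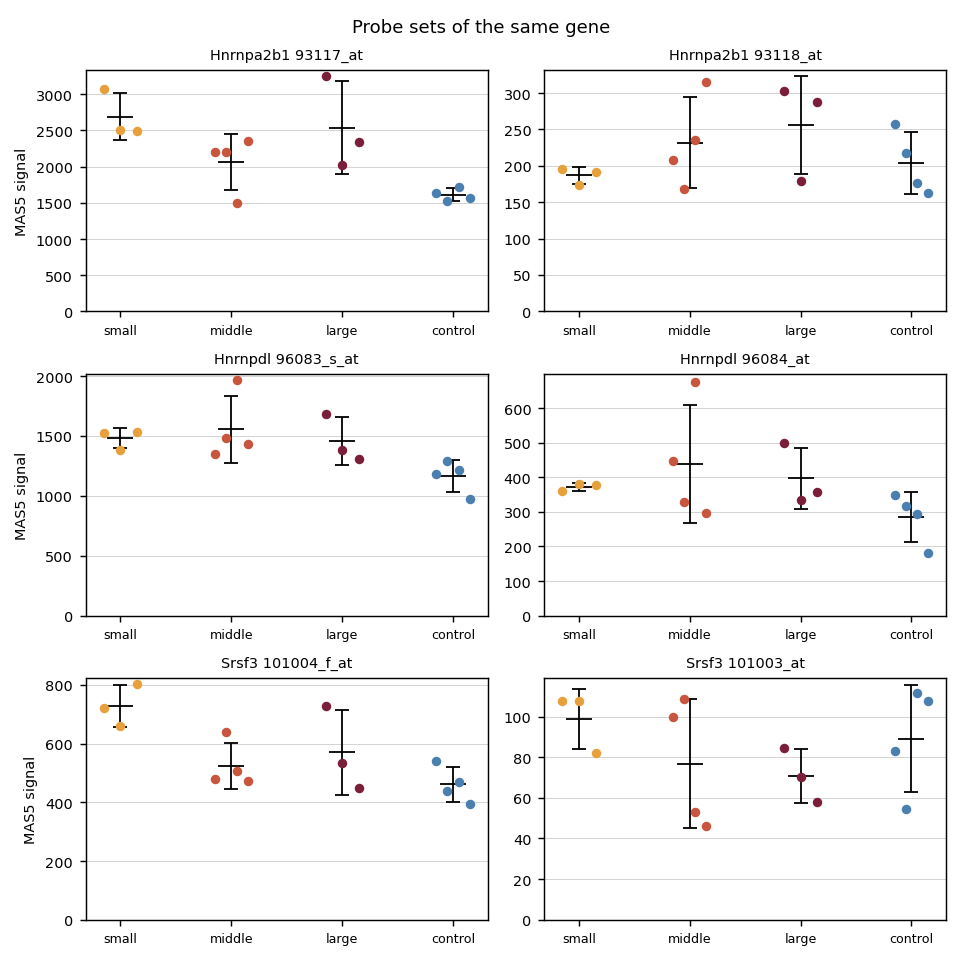
MAS5 signal (vertical axes, from 0) of 2 probe sets each of Hnrnpa2b1, Hnrnpdl and Srsf3 on the small, middle, large and control arrays; points are arrays, and the bar and whiskers are the group mean and SD. In each pair the left panel is the called probe set; tumor and control signals overlap in every panel but that of the called Hnrnpdl probe set.

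Each tumor size was also compared with control lung. In small tumors 26 of the 62 members were higher (41.9%, against 18.7% of all probe sets) and 1 was lower (1.61%, against 16.3%). In middle tumors 13 were higher (21.0%, against 14.6%) and 1 was lower (1.61%, against 16.2%), and in large tumors 18 were higher (29.0%, against 19.2%) and 3 were lower (4.84%, against 17.8%). The median log2 fold change of the members was 0.42 in small, 0.23 in middle and 0.32 in large tumors, with medians over all probe sets of 0.00, 0.01 and 0.07. The 3 comparisons share the same 4 control lungs. The small-tumor count of 27 calls fell to 16 without small tumor 2, and the middle-tumor count of 14 was 19 without middle tumor 1.

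Between the tumor sizes, none of the 62 members and none of all 8127 probe sets was called by limma. At an unadjusted p under 0.05, 4 members (6.45%, against 7.998% of all probe sets) differed between large and small tumors, 7 (11.3%, against 9.99%) between large and middle tumors and 8 (12.9%, against 6.19%) between middle and small tumors. The methods' t-test, with Benjamini-Hochberg adjustment, called 0 members in each comparison; at an unadjusted p under 0.05 it gave 3 members for large against small tumors, 1 for large against middle tumors and 3 for middle against small tumors. Of these members, 0 of 4 were higher in large than in small tumors, 5 of 7 were higher in large than in middle tumors and 0 of 8 were higher in middle than in small tumors. The median log2 difference over the members was -0.08 for large minus small tumors, against 0.01 over all probe sets, 0.13 for large minus middle tumors, against 0.03, and -0.24 for middle minus small tumors, against -0.01.

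The rest of the splicing machinery was read from 6 lists of genes outside the rule, with 1 probe set per gene. Of 133 genes tested, 56 (42.1%, against 22.7% of all probe sets) were higher in tumors and 6 (4.51%, against 20.8%) were lower, and the median log2 fold change was 0.28. The highest share was in the snRNP assembly list, where 7 of 9 genes were higher (77.8%, against 22.7% of all probe sets). None was lower there (against 20.8% of all), and the median log2 fold change was 0.86. Its largest rise was Wdr77, a partner of the arginine methyltransferase that modifies Sm proteins, with signals of 206 to 1327 in tumors, against 146 to 298 in control lungs (log2 fold change 1.92 ± 0.36 (SE), adjusted p = 0.00056). Among Sm-like (Lsm) and other snRNP proteins, 11 of 18 were higher (61.1%, against 22.7% of all probe sets) and none lower (against 20.8%). Lsm7 had the largest rise, with signals of 294 to 961 in tumors, against 223 to 380.3 in control lungs (log2 fold change 1.35 ± 0.24 (SE), adjusted p = 0.00037).

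Splicing helicases and catalytic step proteins had 9 of 31 genes higher (29.0%, against 22.7% of all probe sets) and 3 lower (9.68%, against 20.8%). The largest rise was that of the helicase gene Ddx41 (log2 fold change 0.74 ± 0.15 (SE), adjusted p = 0.00133). The largest fall was that of Syf2, a subunit of the catalytic spliceosome (log2 fold change -0.49 ± 0.10 (SE), adjusted p = 0.00142). The exon junction and export list had 5 of 16 higher (31.25%, against 22.7%) and none lower, led by Thoc3 of the export complex (0.74, adjusted p = 0.000838). SR protein kinases and SR-related factors had 5 of 16 higher (31.25%, against 22.7%) and none lower, led by Tnpo3, the importin for SR proteins (1.20, adjusted p = 0.000177). The list of alternative splicing regulators had 19 of 43 higher (44.2%, against 22.7%) and 3 lower (6.98%, against 20.8%). Its largest rise was Esrp1, a splicing regulator of epithelial cells, with signals of 250.0 to 432 in tumors, against 70.8 to 109 in control lungs (log2 fold change 1.93 ± 0.19 (SE), adjusted p = 3.54e-06), and its largest fall was Celf2, with signals of 57.8 to 187 in tumors, against 266 to 427 in control lungs (log2 fold change -1.44 ± 0.25 (SE), adjusted p = 0.000332).

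**Figure D5:**
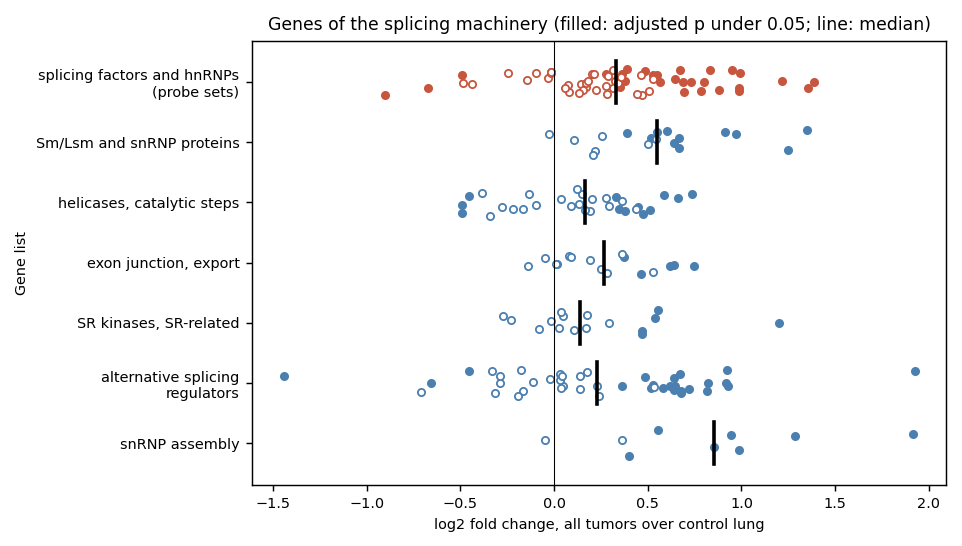
Log2 fold change of all tumors over control lung (horizontal axis) for the 62 member probe sets and for the genes of 6 further lists of splicing genes (rows); points are probe sets, filled where the adjusted p was under 0.05, and black lines are medians. The median of the snRNP assembly list, 0.86, lies furthest to the right, and Esrp1 and Celf2 are the outermost points of the alternative splicing regulators.

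Promoters were searched for the E-box CACGTG, the DNA word bound by Myc with Max, and for the wider form CANNTG (both read alike on either strand, and every CACGTG is also a CANNTG). RefSeq promoters of 300 bases (250 before to 50 after a gene's start, build GRCm38.p6) matched 47 of the 53 member genes. CACGTG was present in 4 of these 47 genes (8.51%, against 8.09% of 27025 genes), in none of the 22 matched genes with a probe set higher in all tumors and in 1 of the 3 lower ones. CANNTG was present in 14 of the 22 (63.6%, against 75.0% of all genes) and in 2 of the 3 lower ones (66.7%). The 4 genes with CACGTG were Hnrnph2, Hnrnpd, Hnrnpm and Prpf39, and the word begins at base 266 of the Hnrnph2 promoter. A match describes these letters and not a bound site. The paper searched longer promoters with weight matrices, so these counts are not its measure of Myc sites. E-box-like words such as CGCGTG were not searched here. The promoters of the largest rises (Snrpg and Hnrnpa1), of Snrpe and of the largest fall (Hnrnph2) are given 5′ to 3′ as examples, with each CANNTG in capitals. They do not stand for their groups, since Srsf3, called higher, holds 3 CANNTG and U2af1l4, called lower, holds none. Snrpg lies at chr6:86371290-86371589, plus strand, Hnrnpa1 at chr15:103240147-103240446, plus strand, Snrpe at chr1:133610231-133610530, minus strand and Hnrnph2 at chrX:134600929-134601228, plus strand.
Snrpg: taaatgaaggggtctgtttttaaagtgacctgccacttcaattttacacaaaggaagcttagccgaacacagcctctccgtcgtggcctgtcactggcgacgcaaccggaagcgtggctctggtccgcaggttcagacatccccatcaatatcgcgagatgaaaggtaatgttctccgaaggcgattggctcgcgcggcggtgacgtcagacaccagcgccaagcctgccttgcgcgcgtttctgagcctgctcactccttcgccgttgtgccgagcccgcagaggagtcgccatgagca
Hnrnpa1: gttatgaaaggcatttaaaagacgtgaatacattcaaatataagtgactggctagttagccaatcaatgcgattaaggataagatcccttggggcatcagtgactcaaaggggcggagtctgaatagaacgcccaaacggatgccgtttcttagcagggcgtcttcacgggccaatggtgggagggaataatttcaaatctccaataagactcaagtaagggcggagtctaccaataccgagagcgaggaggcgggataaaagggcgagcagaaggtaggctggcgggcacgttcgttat
Snrpe: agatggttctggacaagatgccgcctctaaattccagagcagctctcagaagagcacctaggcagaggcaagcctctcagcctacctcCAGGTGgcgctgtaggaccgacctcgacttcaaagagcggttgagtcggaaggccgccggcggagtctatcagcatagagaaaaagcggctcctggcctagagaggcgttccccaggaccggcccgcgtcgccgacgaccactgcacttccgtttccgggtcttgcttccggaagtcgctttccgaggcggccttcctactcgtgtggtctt
Hnrnph2: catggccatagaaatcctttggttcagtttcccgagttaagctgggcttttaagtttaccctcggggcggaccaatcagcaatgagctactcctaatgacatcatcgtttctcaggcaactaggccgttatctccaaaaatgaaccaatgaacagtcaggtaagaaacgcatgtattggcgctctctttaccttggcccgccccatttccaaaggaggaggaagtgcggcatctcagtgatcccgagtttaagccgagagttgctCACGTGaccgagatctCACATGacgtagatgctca
Snrpg and Hnrnpa1 hold no CANNTG in these 300 bases, Snrpe holds 1, and Hnrnph2 holds 2, of which the first is CACGTG.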

How the data were processed

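The values were MAS5 signal intensities deposited by the authors, who scaled each array to 1 target signal in the Affymetrix software; a build was not given in the sources used here. Depth does not apply to arrays, so precision rests on the number of arrays. Probe sets were named through the platform annotation. Control probe sets were left out, and values below 1e-06, which were found on the third middle tumor (25.2% of its probe sets), were treated as missing. Signals were floored at 70, put on the log2 scale and fitted with limma 3.58.1 (R 4.3.3; all 4 groups in 1 fit, mean-variance trend), with Benjamini-Hochberg adjustment over the 8127 probe sets with at least 70 on at least 3 arrays; the threshold was an adjusted p under 0.05. The fit was tested on simulated data. Per the labels, the arrays of a group are biological replicates. Named members were Tra2b, the U2af genes, the 10 largest called rises and falls, the 2 brightest of each family, and genes whose probe sets differ in call; other called members are named as examples chosen after their values were seen. The members and lists were chosen with earlier results of these data known. Replicate numbers did not pair the samples. Alternatives covered the floor, normalization, filter, 1 probe set per symbol, missing values, spread, weights, samples fitted, replicate block and RNA quality. Further alternatives were an unpaired t-test with Benjamini-Hochberg adjustment and leaving out each array.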

Additional observations from a re-analysis of the deposited data

How the results depend on the processing

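Among 29 alternatives (14 of them leaving out 1 array each), no named member changed sign where it was called, and 10 of the 17 named members that were called stayed past the threshold under every alternative run on them; the exceptions were Hnrnpdl, Hnrnph3, Sf3b3, Srsf2 (1 of its 2 probe sets), Srsf3, Srsf6 and U2af1l4, and the cause was not tested. Scaling each array to 1 median moved the median of all probe sets up by 0.10 on the log2 scale, and gave 2350 higher and 1387 lower probe sets over all, where the scaling used in the report gave 1842 and 1687; 36 members were then higher and 2 lower (58.1% of members higher, against 28.9% of all probe sets), where the report gives 25 and 3, and the members' median became 0.47, which is 0.33 above that of all probe sets, against 0.30 under the scaling used in the report. With values of 0 kept, 19 members were higher and 2 lower. Scaling to 1 median gave 24 member calls in middle tumors, keeping values of 0 gave 9 and the unpaired t-test gave 3, where the report gives 14.

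Leaving out 1 array at a time, the members higher in all tumors numbered 17 to 28 (lowest without control lung 1) and those lower stayed at 3, the calls were 16 to 27 in small, 11 to 19 in middle and 16 to 27 in large tumors, those between sizes stayed at 0, and the median log2 fold change was 0.28 to 0.37. The replicate numbers did not pair the samples (19 same-number pairs, correlations of -0.21 to 0.12, 1 of them over 0.1). With the replicate block, 20 members were higher and 3 lower in all tumors, with 20 calls in small, 13 in middle and 20 in large tumors and a median of 0.31; of the named members, Hnrnpdl and Srsf3 lost their calls under it. The number of arrays limits the precision. The floor of 70 shrinks a fold where the lower group lies under it. Where a low tumor is raised to it, as for Prpf31, it enlarges a rise.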
